A study of Mus musculus with 12 samples.

Results

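The proteasome genes described here carry a symbol that starts with Psma, Psmb, Psmc, Psmd, Psme, Psmf or Psmg followed by a digit; pseudogenes, whose symbols end in -ps, were left out. The rule used names and no measured value. It found 48 of the 24704 genes with 1 symbol on the array. Of these, 46 encode subunits of the proteasome, its assembly chaperones, its activators or its inhibitor. The other 2 match by name only: Psmc3ip, a cofactor of meiotic recombination, and Psme3ip1, a protein that binds the activator Psme3. Of the 48 members, 45 lay above the median of their array on at least 3 of the 12 arrays and were tested among 13737 genes. The alpha subunits Psma5 and Psma8 and the thymus subunit Psmb11 were too dim for this filter. Psmb3, Psmb5 and Psme2b were not analysed here.

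The cells were ventricular myocytes of adult mice, the muscle cells of the heart's lower chambers, obtained by enzymatic digestion on a Langendorff heart perfusion. They came from wild-type mice (WT) or from mice lacking both the delta and the gamma form of the calcium- and calmodulin-dependent kinase CaMKII (DKO), and were cultured for 24 h, either untreated or with Iso added at 100 nM. The 4 groups are WT untreated, WT with Iso, DKO untreated and DKO with Iso, with 3 Affymetrix arrays each. By the mouse number given with each array they come from 6 mice, mice 1 to 3 DKO and mice 4 to 6 WT, and each mouse gave 1 untreated and 1 treated array. The labels do not say in which cells the 2 genes were deleted or with which promoter. The study asked whether a phosphorylation of histone H3 that follows Iso goes with changes in gene expression.

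The proteasome degrades most proteins that carry a ubiquitin tag. Its core particle is a barrel of alpha and beta rings with the cutting sites on beta subunits inside. A regulatory particle sits on the barrel: its base holds ATPases that unfold the substrate, and its lid removes the ubiquitin. Interferon-induced beta subunits can take the place of the standard cutting subunits, which gives the immunoproteasome. In heart muscle the proteasome takes part in the turnover of contractile proteins.

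Values are log2 signals, so a difference of 1 is a doubling. Each probe set has its own brightness, and a gene was compared only with itself across arrays. Camk2g, which encodes the gamma form, read 4.78 to 5.80 on the WT arrays and 3.57 to 4.20 on the DKO arrays, and passed in both genotype comparisons (adjusted p = 0.0361 without Iso and 0.00238 with it). Camk2d read 7.94 to 8.42 and 7.36 to 7.98 and passed in neither (adjusted p = 0.446 and 0.64). The 11 cardiomyocyte markers averaged 12.2 to 12.6 on the 12 arrays, and the 4 lymphocyte markers measured averaged 2.79 to 3.05. Untreated DKO array 3 stood apart: its median correlation with the other arrays was 0.956, against 0.984 to 0.988 for the rest. It is called the outlying array, and values without it stand beside the results that rest on it most. The arrays measure bulk RNA, so fewer cells of a type and less RNA per cell cannot be told apart. Although each pair of arrays comes from its own mouse, the p-values measure only the spread between these 12 arrays.

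Promoter letters are shown for 4 chosen members: Psme3, which encodes a nuclear activator, Psmd5, an assembly chaperone of the base, Psmd6, a lid subunit, and Psmb9, an immunoproteasome subunit. RefSeq windows on build GRCm38.p6 matched 40 of the 48 members. The Psme3 stretch is chr11:101315963-101316212 on the plus strand. On the minus strand, the stretch of Psmd5 is chr2:34870963-34871212, that of Psmd6 chr14:14120946-14121195 and that of Psmb9 chr17:34187331-34187555. The Psmb9 stretch has 225 bases because the gene of the peptide transporter Tap1 starts at its far end and is read the other way; the other 3 have 250. Each is written 5′ to 3′ in the direction of its gene and ends just before the start. Capitals mark matches to TGACG or CCAAT, written as CGTCA or ATTGG where the match is on the opposite strand.
Psme3: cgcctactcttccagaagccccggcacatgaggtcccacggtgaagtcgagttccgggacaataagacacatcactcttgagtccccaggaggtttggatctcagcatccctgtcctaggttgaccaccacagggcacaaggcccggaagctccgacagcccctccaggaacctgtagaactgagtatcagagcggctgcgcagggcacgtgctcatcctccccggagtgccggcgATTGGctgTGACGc
Psmd5: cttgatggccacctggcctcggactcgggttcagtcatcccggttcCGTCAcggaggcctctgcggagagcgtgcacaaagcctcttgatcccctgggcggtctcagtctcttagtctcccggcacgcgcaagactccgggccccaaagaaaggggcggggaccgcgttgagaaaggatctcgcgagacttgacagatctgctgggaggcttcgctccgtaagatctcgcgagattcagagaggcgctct
Psmd6: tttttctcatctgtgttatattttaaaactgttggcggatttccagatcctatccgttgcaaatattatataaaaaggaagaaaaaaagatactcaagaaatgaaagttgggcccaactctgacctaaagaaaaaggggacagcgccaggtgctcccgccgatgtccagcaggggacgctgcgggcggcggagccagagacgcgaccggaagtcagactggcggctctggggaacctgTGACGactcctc
Psmb9: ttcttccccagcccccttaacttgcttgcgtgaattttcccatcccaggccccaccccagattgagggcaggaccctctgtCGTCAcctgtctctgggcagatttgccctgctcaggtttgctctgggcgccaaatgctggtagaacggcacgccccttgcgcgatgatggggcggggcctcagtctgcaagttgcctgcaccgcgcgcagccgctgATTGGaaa
All 4 hold TGACG, and Psme3 and Psmb9 also hold CCAAT close to the start. The 4 do not stand for all members in this: Psmb10, whose window was matched too, holds no TGACG. On either strand of the 250 bases before the start, TGACG, the first part of the cAMP response element, stood in 13 of the 40 members (32.5%) and in 17.8% of 32841 windows of all genes. The full element TGACGTCA, which contains it, stood in none of the 40 and in 1.55% of all windows. CCAAT stood in 14 members (35%) and in 33.9% of all windows. The core of the antioxidant response element, TGACNNNGC, stood in Psmb6, Psmc6, Psmd9 and Psmd12 (10%) and in 10.2% of all windows; it can overlap TGACG. These are counts of letters, not of binding sites.

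No member passed (limma, adjusted p under 0.05 over all tested genes) in any of the 7 comparisons, and few genes of any kind did. The share of all tested genes that passed was 0.0218% for Iso in WT and 0.051% for Iso in DKO. It was 0.0146% for the interaction, which is the Iso effect in DKO minus that in WT. It was 0.204% for DKO against WT untreated, 0.306% for DKO against WT with Iso, 0.124% for the Iso effect averaged over genotypes and 0.546% for the genotype effect averaged over treatments. At these shares 0 of 45 is near the background. The lowest adjusted p of a member was 0.0957, for Psmd5 in the averaged Iso effect. With the outlying array left out, 1 member passed, Psmd5 in the averaged Iso effect, where 0.753% of all genes did. In the other comparisons that use that array 0 members passed without it, against 0.229% of all genes for Iso in DKO, 0.0517% for the interaction, 0.339% for the untreated genotype comparison and 1.82% for the averaged one.

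With the outlying array set aside, most members stayed close to one level in all 4 groups. The distance between the highest and the lowest of the 4 group means had a median of 0.38 over the 45 members and 0.31 over all tested genes. It was under 0.25 for 13 members (28.9%), against 36.5% of all genes. Without the outlying array the medians were 0.21 and 0.29, and 25 members (55.6%) lay under 0.25, against 39.6% of all genes. Over all 12 arrays the smallest distances among the proteasome genes were those of the 5 standard beta subunits, 0.03 for Psmb1, 0.09 for Psmb6, 0.12 for Psmb2, 0.16 for Psmb7 and 0.18 for Psmb4. The 5 largest that remained without the outlying array were 0.79 for Psmd5, 0.61 for Psmg3, 0.57 for Psmb10, 0.48 for Psme3 and 0.47 for Psmf1.

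**Figure D1:**
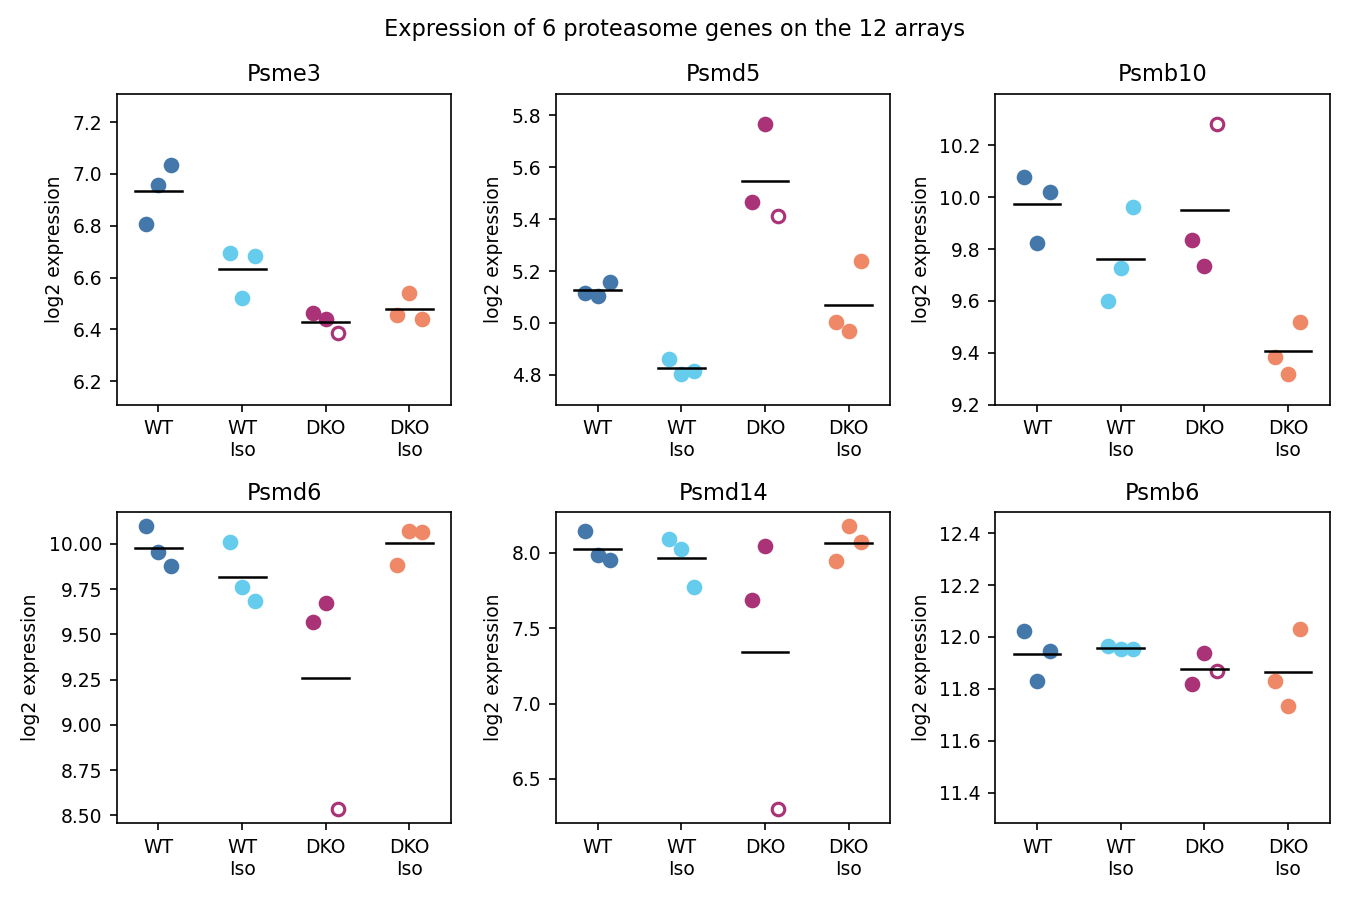
log2 expression (vertical axis) of 6 members on the 12 arrays, by group; points are arrays, bars are means of 3, and the open circle is untreated DKO array 3. The untreated WT points of Psme3 (6.81 to 7.03) lie above all its other points, and the open circle lies far below the rest for Psmd6 (8.54) and Psmd14 (6.30).

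On the outlying array many alpha, base and lid subunits read low, and others of the same parts did not. Set against the mean of the other 2 untreated DKO arrays, 15 of 45 members (33.3%) read more than 0.5 lower, against 16.2% of all tested genes, and 4 (8.89%) more than 0.5 higher, against 15.4%. The low members included 3 of 6 alpha, 4 of 9 base and 4 of 8 lid subunits, among them the lid deubiquitinase Psmd14 at -1.57, the alpha subunit Psma1 at -1.49, the lid subunit Psmd12 at -1.30 and the ATPases Psmc1 at -1.27 and Psmc5 at -1.15. The core chaperone Psmg2 was lowest, at -1.63. The alpha subunits Psma3 and Psma7 read 0.35 and 0.13 higher and the lid subunits Psmd8, Psmd13 and Psmd3 0.20, 0.12 and 0.11 higher. Psmb1, Psmb2, Psmb4 and Psmb6, of the beta ring, lay between -0.01 and 0.11, and Psmb7 was at -0.55. The immunoproteasome subunits Psmb10, Psmb9 and Psmb8 read 0.50, 0.60 and 0.64 higher, and the core chaperone Psmg3 1.03 higher. No more than 3 members read over 0.5 below their group on any of the other 11 arrays.

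**Figure D2:**
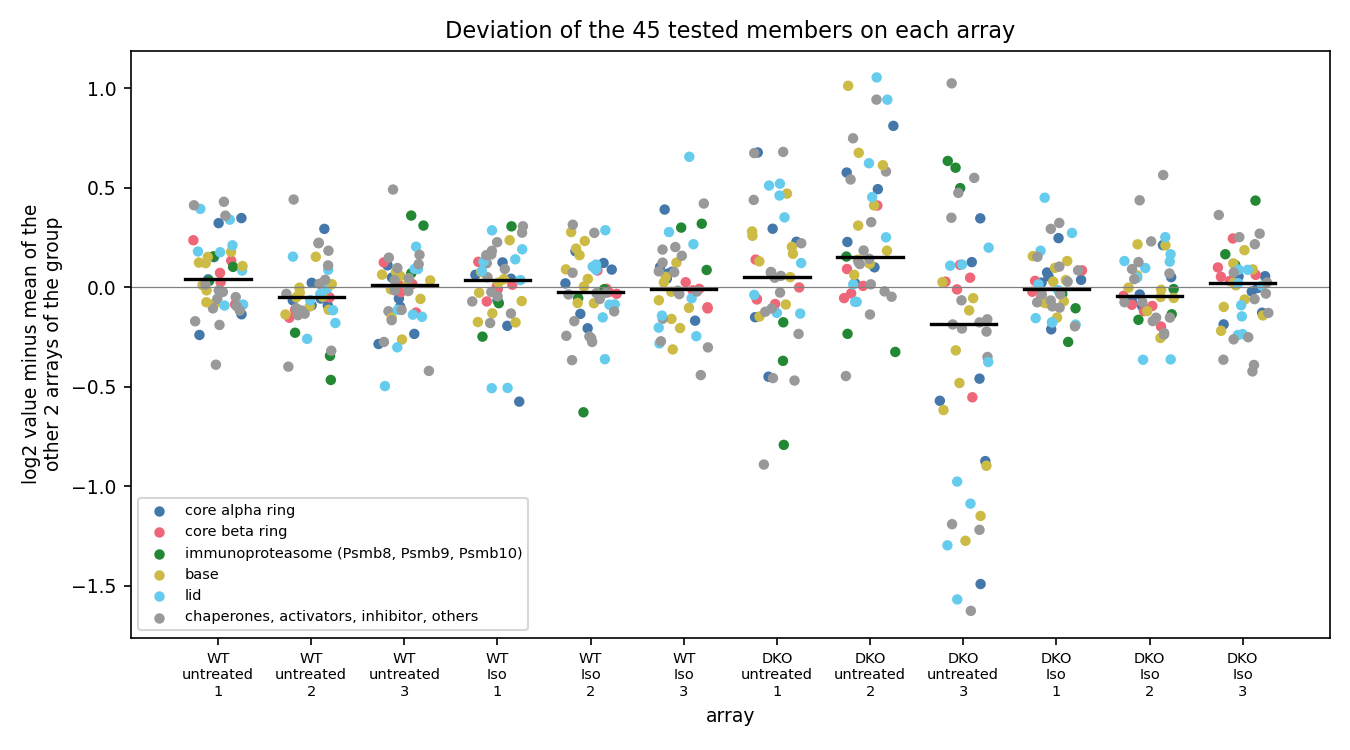
Deviation in log2 value (vertical axis) of the 45 tested members on each array from the mean of the other 2 arrays of its group, 1 column per array, coloured by place in the complex, with a bar at the median. On untreated DKO array 3 the points run from -1.63 to 1.03; that array is part of the reference for untreated DKO arrays 1 and 2.

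The alpha ring, which gates the entry to the barrel, had 6 tested members. Their Iso differences ran from -0.20 (Psma1) to 0.01 (Psma4) in WT and from -0.14 (Psma7) to 0.60 (Psma1) in DKO, and none passed. On the WT arrays Psma1 read 10.79, 10.51 and 10.42 without and 10.40, 10.45 and 10.26 with Iso, and on the DKO arrays 10.38, 10.47 and 8.93 without and 10.54, 10.47 and 10.56 with it. Apart from the 8.93 of the outlying array all arrays lay within 10.26 to 10.79. The Iso difference of Psma1 in DKO was 0.60 (SE 0.31, adjusted p = 0.317), and 0.10 (SE 0.13, adjusted p = 0.784) without that array. Psma6 read 11.80, 11.71 and 11.81 (WT) and 11.39, 11.58 and 10.61 (DKO) in cells left untreated, and 11.57, 11.63 and 11.64 (WT) and 11.67, 11.61 and 11.62 (DKO) in cells given Iso. All untreated DKO arrays lay below all untreated WT arrays. That genotype difference was -0.58 (SE 0.19, adjusted p = 0.227), and -0.29 (SE 0.11, adjusted p = 0.308) without the outlying array. Psma7 was lower with Iso in all 6 mice, by 0.02 to 0.22, and its averaged Iso difference was -0.15 (SE 0.078, adjusted p = 0.417).

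Psma5, another alpha subunit of the standard core, read only 2.60 to 3.62, while its pseudogene Psma5-ps read 10.49 to 11.27. The gene and its copy may share probe sequence, so the level of Psma5 is uncertain. Psma8, which replaces a standard alpha subunit in male germ cells, read 2.99 to 3.46.

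The standard beta ring, with 5 tested members, gave the smallest differences. The 3 WT mice gave 12.02, 11.83 and 11.95 for Psmb6 untreated and 11.97, 11.95 and 11.95 with Iso, while the 3 DKO mice gave 11.82, 11.94 and 11.87 and 11.83, 11.73 and 12.03. Psmb6 carries the caspase-like cutting site, and its groups overlapped. Its Iso difference was 0.02 (95% interval -0.22 to 0.27) in WT and -0.01 (-0.26 to 0.24) in DKO. For Psmb1, a structural subunit of the ring, the values were -0.03 (-0.25 to 0.19) and 0.00 (-0.22 to 0.22). The intervals of these 2 genes reach no change of 0.5 in either direction. Psmb7, which carries the trypsin-like site, differed with Iso by -0.03 (-0.36 to 0.29) in WT and 0.16 (-0.16 to 0.48) in DKO, or -0.02 (-0.27 to 0.22) in DKO without the outlying array, which read 10.40. Over the 7 comparisons the differences of the 5 beta subunits ran from -0.16 to 0.19.

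The immunoproteasome subunits were more variable. In WT, Psmb10 gave 10.08, 9.82 and 10.02 on the untreated and 9.60, 9.73 and 9.96 on the treated arrays, and in DKO 9.83, 9.73 and 10.28 on the untreated and 9.38, 9.32 and 9.52 on the treated arrays. Psmb10 replaces Psmb7, and its 3 treated DKO arrays lay below the other 9. It was lower with Iso in all 6 mice, by 0.06 to 0.48 in WT and 0.42 to 0.77 in DKO. The Iso difference in DKO was -0.54 (SE 0.16, adjusted p = 0.117), a 0.686-fold level, and -0.38 (SE 0.14, adjusted p = 0.224) without the outlying array. It passed with array weights (adjusted p = 0.042) and without untreated DKO array 2 (adjusted p = 0.0499), which leaves the outlying array a larger share of the group. In WT the Iso difference was -0.21 (SE 0.16, adjusted p = 0.897), and the interaction was -0.33 (SE 0.22, adjusted p = 0.601).

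Psmb8 and Psmb9, which replace Psmb5 and Psmb6, differed in sign between the genotypes. Psmb8 read 5.42, 5.17 and 5.61 (WT) and 5.21, 5.84 and 6.16 (DKO) in cells left untreated, and 5.84, 5.22 and 5.85 (WT) and 5.09, 5.16 and 5.56 (DKO) in cells given Iso. By mouse Psmb8 was higher with Iso in the 3 WT mice, by 0.05 to 0.42, and lower in the 3 DKO mice, by 0.12 to 0.67, although treated and untreated groups overlapped. The interaction was -0.70 (SE 0.35, adjusted p = 0.503), and -0.48 (SE 0.32, adjusted p = 0.646) without the outlying array. The 3 WT mice gave 5.62, 5.24 and 5.79 for Psmb9 untreated and 5.70, 5.75 and 5.81 with Iso, while the 3 DKO mice gave 5.67, 5.76 and 6.32 and 5.60, 5.66 and 5.74. These groups overlapped too. The Psmb9 interaction was -0.45 (SE 0.25, adjusted p = 0.539), and -0.25 (SE 0.20, adjusted p = 0.724) without the outlying array, which held its highest value. Psmb11, the thymus form, read 3.06 to 3.42 and was dim.

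The mean of the macrophage and leukocyte markers was low in the same group as Psmb10. Of 16 markers 15 were measured and 14 tested. Their mean log2 signal was 4.73 to 4.91 per array in treated DKO cells and 5.12 to 5.39 in the other 3 groups, and their summed log2 signal 71.0 to 73.7 against 76.8 to 80.8. In the Iso comparison in DKO 12 of the 14 lay below 0, with a median of -0.42 against 0.01 over all tested genes. The markers were uneven, from H2-Ab1 at -1.02, C1qb at -0.90 and C1qa at -0.75 to Itgam at 0.10. Mrc1 was at 0.05, Adgre1 at -0.06 and Cd14 at -0.08. At an unadjusted p under 0.05, 7 of the 14 were lower, where 8.94% of all genes were. These marker differences include the outlying array, whose marker mean was 5.39, against 5.14 and 5.12 on untreated DKO arrays 1 and 2. In DKO against WT with Iso, Cd74 at -0.94 (SE 0.17, adjusted p = 0.04) and Cd14 at -0.92 (SE 0.17, adjusted p = 0.0402) passed. The Iso difference of Cd74 was 0.29 (SE 0.17, adjusted p = 0.822) in WT and -0.81 (SE 0.17, adjusted p = 0.0689) in DKO. That of Cd14 was 0.67 (SE 0.17, adjusted p = 0.413) in WT and -0.08 (SE 0.17, adjusted p = 0.836) in DKO. None of these Iso differences passed. The outlying array had the highest marker mean, 5.39, and the highest value of Psmb8, Psmb9 and Psmb10. It also had the highest mean of the 13 endothelial markers, 6.92, against 6.24 to 6.75 on the other 11 arrays, and the lowest mean of the 11 cardiomyocyte markers, 12.17. In treated DKO cells the endothelial mean was 6.35 to 6.57, within the range of the other groups. Ptprc, the general leukocyte marker, was dim, and Lyz2 was not analysed here. The part of such cells in the immunoproteasome values was not tested.

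**Figure D3:**
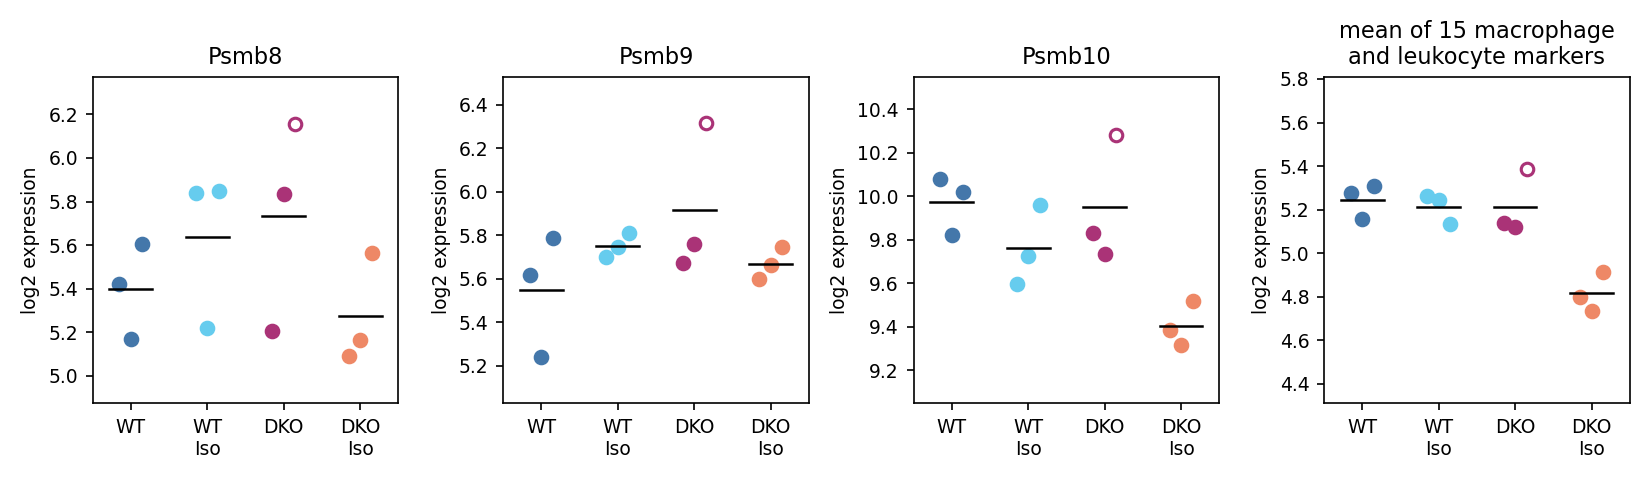
log2 expression of Psmb8, Psmb9 and Psmb10 and the mean log2 expression of 15 macrophage and leukocyte markers (vertical axes) on the 12 arrays, by group; bars are means of 3 and the open circle is untreated DKO array 3. The treated DKO points of Psmb10 (9.32 to 9.52) and of the marker mean (4.73 to 4.91) lie below those of the other groups.

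The genes that act with the immunoproteasome in antigen presentation came from a list of 15. Of these 14 were tested and 0 passed in any comparison. On the WT arrays Tap1 read 4.94, 4.84 and 5.27 without and 5.25, 5.71 and 4.81 with Iso, and on the DKO arrays 5.13, 5.07 and 5.65 without and 4.82, 4.98 and 5.27 with it. Tap1 carries peptides into the endoplasmic reticulum and faces Psmb9 across the printed stretch. Its Iso difference was 0.24 (SE 0.23, adjusted p = 0.944) in WT and -0.26 (SE 0.23, adjusted p = 0.581) in DKO, with overlapping groups. B2m, the light chain of class I molecules, differed with Iso by 0.32 (SE 0.19) in WT and 0.07 (SE 0.19) in DKO. The class I heavy chain H2-K1 read 6.80, 6.38 and 6.74 untreated and 6.89, 6.95 and 6.85 with Iso in WT, without overlap, and 6.95, 6.62 and 7.13 untreated and 6.39, 6.25 and 6.63 with Iso in DKO. By mouse H2-K1 was higher with Iso in the 3 WT mice and lower in the 3 DKO mice, the signs seen for Psmb8 and Psmb9. This pattern was shown by 1.97% of all tested genes and by no other gene of the 14. Tap1, B2m and the class I heavy chains H2-D1 and H2-T23 had mixed signs by mouse. The Iso difference of H2-K1 was 0.25 (SE 0.16, adjusted p = 0.865) in WT and -0.48 (SE 0.16, adjusted p = 0.156) in DKO, and -0.36 (SE 0.16, adjusted p = 0.327) in DKO without the outlying array. The H2-K1 interaction was -0.73 (SE 0.23, adjusted p = 0.392), and with Iso its DKO arrays lay below its WT arrays, at -0.47 (SE 0.16, adjusted p = 0.406). The inducers Irf1 and Nlrc5 differed by 0.12 (SE 0.18) and -0.03 (SE 0.16) in WT, and by -0.04 (SE 0.18) and 0.38 (SE 0.16, adjusted p = 0.229) in DKO. For Iso in DKO 7 of the 14 lay above 0 and 7 below, with a median of 0.03, against 0.01 over all tested genes.

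The base had 9 tested members: the ATPases Psmc1 to Psmc6, the scaffold subunits Psmd1 and Psmd2 and the ubiquitin receptor Psmd4. Psmc4 read 9.59, 9.55 and 9.61 (WT) and 9.58, 9.73 and 9.60 (DKO) in cells left untreated, and 9.23, 9.54 and 9.28 (WT) and 9.41, 9.15 and 9.40 (DKO) in cells given Iso. The treated arrays of Psmc4 lay below the untreated ones in both genotypes, and it was lower with Iso in all 6 mice, by 0.02 to 0.58. Its averaged Iso difference was -0.28 (SE 0.087, adjusted p = 0.183), and -0.28 (SE 0.090, adjusted p = 0.148) without the outlying array. Psmd2 was higher with Iso in all 6 mice, by 0.03 to 0.30, with an averaged difference of 0.14 (SE 0.078, adjusted p = 0.441).

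The 3 WT mice gave 9.77, 9.63 and 9.55 for Psmc6 untreated and 9.71, 9.50 and 9.45 with Iso, while the 3 DKO mice gave 9.38, 9.41 and 9.08 and 9.57, 9.82 and 9.63. The untreated DKO arrays of Psmc6 lay below the untreated WT arrays and below the treated DKO arrays. It was higher with Iso in the 3 DKO mice, by 0.20 to 0.56, and lower in the 3 WT mice, by 0.06 to 0.13. The Iso difference in DKO was 0.39 (SE 0.13, adjusted p = 0.163), and 0.28 (SE 0.13, adjusted p = 0.334) without the outlying array. The interaction was 0.48 (SE 0.19, adjusted p = 0.435). Psmc5, another ATPase of the ring, read 8.57 on the outlying array and 9.49 to 9.89 on the other 11. Its Iso difference in DKO was 0.29 (SE 0.24, adjusted p = 0.565) with that array and -0.10 (SE 0.12, adjusted p = 0.759) without it. Psmd4 read 7.68, 7.86 and 7.80 untreated and 7.48, 7.45 and 7.65 with Iso in DKO, without overlap. Its Iso difference was -0.25 (SE 0.12, adjusted p = 0.283) in DKO and -0.05 (SE 0.12, adjusted p = 0.988) in WT.

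The lid had 8 tested members. In WT, Psmd6 gave 10.10, 9.96 and 9.88 on the untreated and 10.01, 9.76 and 9.68 on the treated arrays, and in DKO 9.57, 9.68 and 8.54 on the untreated and 9.88, 10.07 and 10.06 on the treated arrays. The untreated DKO arrays of Psmd6, a lid subunit of the scaffold around the deubiquitinase, lay below those of untreated WT and of treated DKO. The highest of them, 9.68, sets this separation, so leaving out the 8.54 of the outlying array could not undo it. By mouse it was higher with Iso by 0.31, 0.39 and 1.53 in the 3 DKO mice, and lower by 0.09, 0.19 and 0.20 in the 3 WT mice. The Iso difference in DKO was 0.75 (SE 0.24, adjusted p = 0.139), a 1.68-fold level, and 0.38 (SE 0.13, adjusted p = 0.205) without the outlying array. It passed without untreated DKO array 2 (adjusted p = 0.0476), which leaves the outlying array a larger share of the group. The interaction was 0.90 (SE 0.34, adjusted p = 0.422), and 0.54 (SE 0.18, adjusted p = 0.344) without the outlying array. The untreated genotype difference was -0.72 (SE 0.24, adjusted p = 0.225), and -0.36 (SE 0.13, adjusted p = 0.295) without it.

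Psmd14 read 8.15, 7.99 and 7.95 (WT) and 7.69, 8.05 and 6.30 (DKO) in cells left untreated, and 8.09, 8.02 and 7.78 (WT) and 7.95, 8.18 and 8.07 (DKO) in cells given Iso. Psmd14, the deubiquitinase of the lid, was far below its other values on the outlying array. Its Iso difference in DKO was 0.72 (SE 0.32, adjusted p = 0.259) with that array and 0.20 (SE 0.15, adjusted p = 0.576) without it. Psmd12, a scaffold subunit of the lid, gave 0.61 (SE 0.27, adjusted p = 0.265) and 0.17 (SE 0.14, adjusted p = 0.607). Psmd11, which is known to set how much of the full particle is assembled, differed with Iso by 0.01 (-0.29 to 0.32) in WT and 0.08 (-0.23 to 0.39) in DKO, as difference and 95% interval. Psmd13 had the lowest Iso difference of the lid in both genotypes, -0.33 (SE 0.21, adjusted p = 0.864) in WT and -0.41 (SE 0.21, adjusted p = 0.312) in DKO, and was lower with Iso in 5 of 6 mice. Psmd8 read higher in DKO, by 0.35 (SE 0.14, adjusted p = 0.305) untreated and 0.29 (SE 0.14, adjusted p = 0.674) with Iso.

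The base chaperones Psmd5, Psmd9 and Psmd10 hold the ATPases while the base is built and leave the finished particle. The 3 WT mice gave 5.12, 5.10 and 5.16 for Psmd5 untreated and 4.86, 4.80 and 4.81 with Iso, while the 3 DKO mice gave 5.47, 5.77 and 5.41 and 5.00, 4.97 and 5.24. The treated arrays of Psmd5 lay below the untreated ones in both genotypes, and the DKO arrays above the WT arrays of the same treatment. With Iso it was lower in all 6 mice, by 0.26 to 0.34 in WT and 0.17 to 0.80 in DKO. The Iso difference was -0.30 (SE 0.13, adjusted p = 0.695) in WT, -0.48 (SE 0.13, adjusted p = 0.0965) in DKO and -0.39 (SE 0.089, adjusted p = 0.0957) averaged, a 0.763-fold level. Without the outlying array the averaged value was -0.42 (SE 0.087, adjusted p = 0.0495) and passed. With array weights it also passed (adjusted p = 0.022), as did the difference in DKO (adjusted p = 0.026), while with each mouse as a fixed block the averaged value did not (adjusted p = 0.162).

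The genotype difference of Psmd5 was 0.42 (SE 0.13, adjusted p = 0.196) untreated and 0.24 (SE 0.13, adjusted p = 0.693) with Iso. Averaged it was 0.33 (SE 0.089, adjusted p = 0.141), and 0.37 (SE 0.087, adjusted p = 0.0542) without the outlying array. It passed with array weights, both averaged (adjusted p = 0.0387) and untreated (adjusted p = 0.0489). Psmd9 read 5.67, 5.96 and 6.29 untreated and 5.66, 5.54 and 5.18 with Iso in DKO, and 5.19 to 5.69 on the WT arrays. Its Iso difference in DKO was -0.51 (SE 0.19, adjusted p = 0.188), and -0.35 (SE 0.19, adjusted p = 0.405) without the outlying array. Psmd10, also known as gankyrin, gave 0.56 (SE 0.26, adjusted p = 0.269) and 0.16 (SE 0.13, adjusted p = 0.623).

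**Figure D4:**
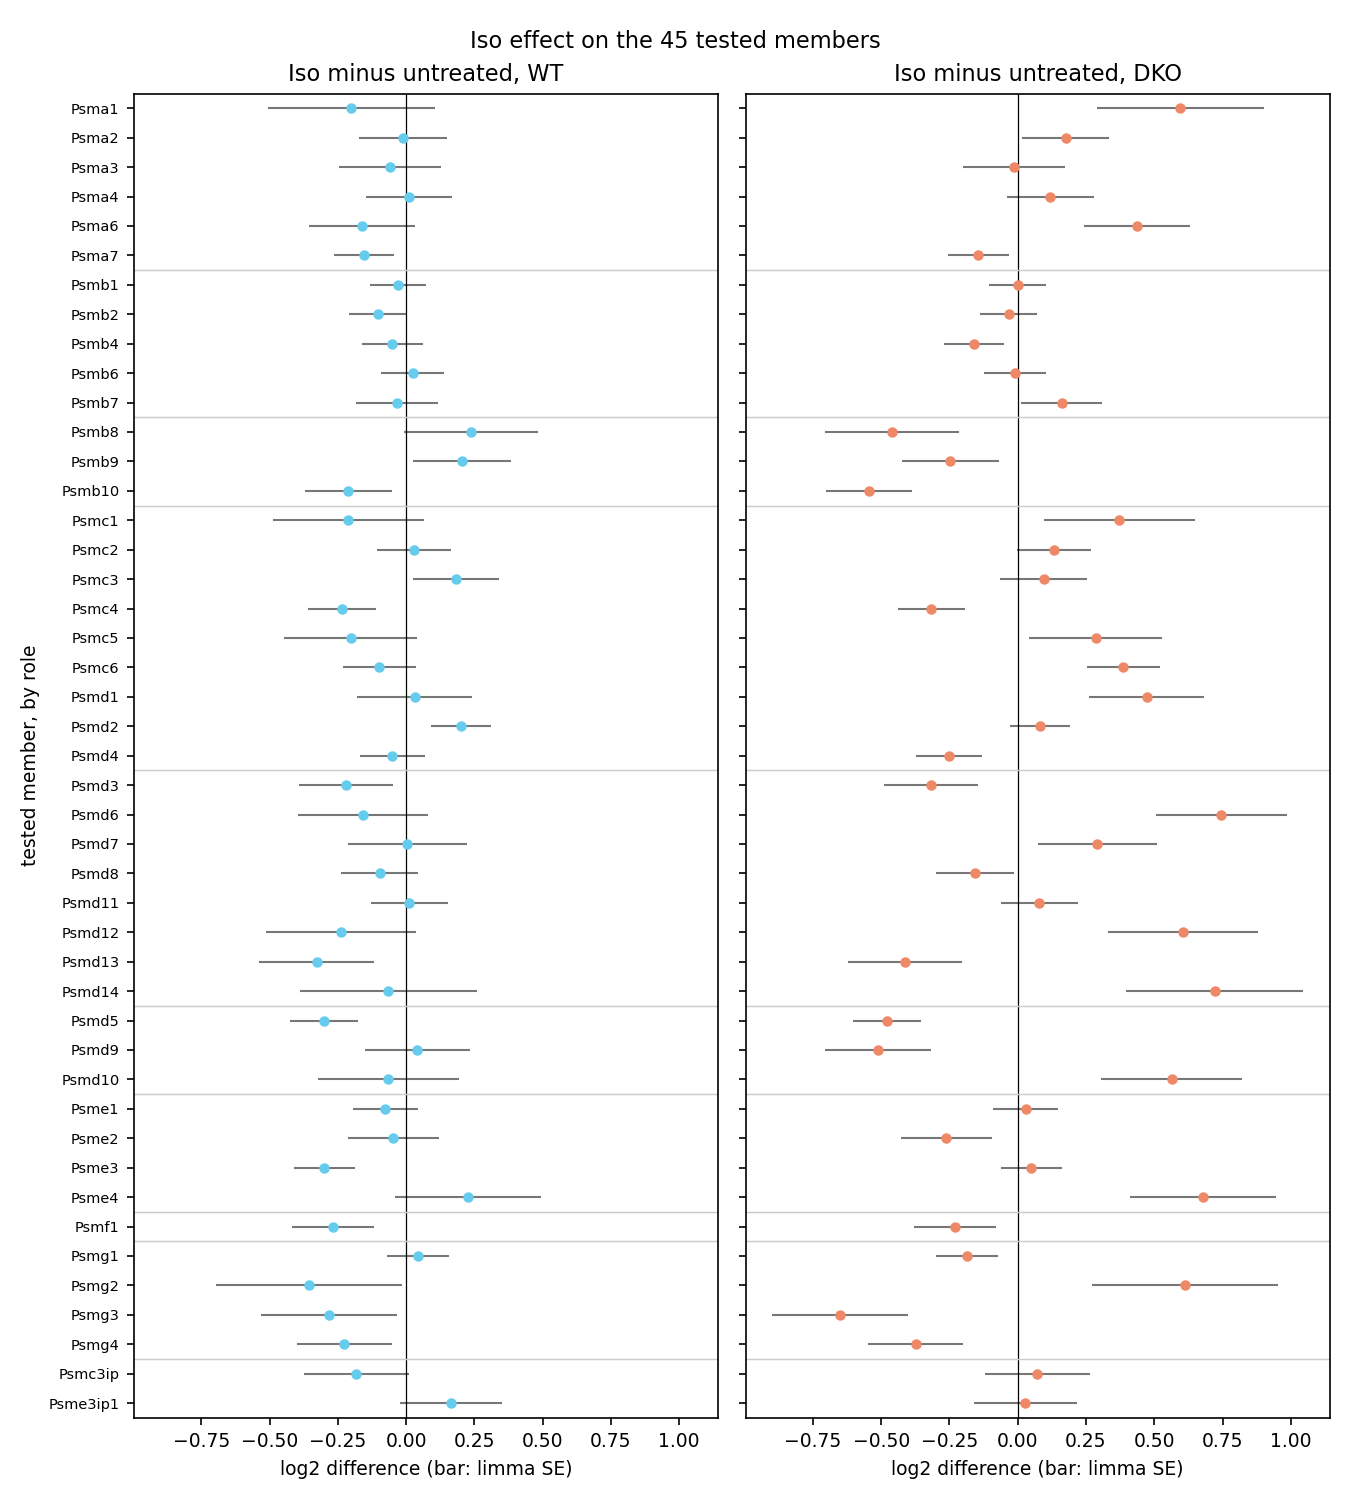
Iso minus untreated log2 difference (horizontal axes) of the 45 tested members in WT (left) and DKO (right), 1 row per gene, ordered by place in the complex; bars are standard errors from limma, all 12 arrays used. The WT differences run from -0.36 to 0.24 and the DKO differences from -0.65 to 0.75, with Psmd6 highest and Psmg3 lowest in DKO.

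The activators bind the ends of the barrel. On the WT arrays Psme3 read 6.81, 6.96 and 7.03 without and 6.70, 6.52 and 6.68 with Iso, and on the DKO arrays 6.46, 6.44 and 6.39 without and 6.46, 6.54 and 6.44 with it. Psme3 forms the nuclear activator that works without ATP. Its untreated WT arrays lay above all other arrays, and the 6 DKO arrays lay within 6.39 to 6.54. The untreated genotype difference was -0.50 (SE 0.11, adjusted p = 0.106), a 0.705-fold level, and -0.48 (SE 0.12, adjusted p = 0.112) without the outlying array. It passed with array weights (adjusted p = 0.0179), as did the averaged genotype difference (adjusted p = 0.0284). With Iso the genotype difference was -0.15 (SE 0.11, adjusted p = 0.83). The Iso difference was -0.30 (SE 0.11, adjusted p = 0.624) in WT and 0.05 (SE 0.11, adjusted p = 0.852) in DKO, and the interaction 0.35 (SE 0.16, adjusted p = 0.483). The Iso comparison in WT and the untreated genotype comparison share the 3 untreated WT arrays.

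Psme1 and Psme2 form the interferon-induced activator, and their treated and untreated groups overlapped. The Iso difference of Psme1 was -0.08 (SE 0.12, adjusted p = 0.97) in WT and 0.03 (SE 0.12, adjusted p = 0.926) in DKO. For Psme2 it was -0.05 (SE 0.17, adjusted p = 0.992) and -0.26 (SE 0.17, adjusted p = 0.426). Psme4 read 8.48, 8.72 and 8.59 (WT) and 8.38, 8.58 and 7.29 (DKO) in cells left untreated, and 8.94, 9.01 and 8.53 (WT) and 8.78, 8.91 and 8.59 (DKO) in cells given Iso. Psme4, a single-chain activator, was higher with Iso in 5 of 6 mice. Its averaged Iso difference, the highest of the members, was 0.45 (SE 0.19, adjusted p = 0.299), and 0.25 (SE 0.11, adjusted p = 0.267) without the outlying array. The 3 WT mice gave 4.38, 3.87 and 4.16 for Psmf1 untreated and 3.84, 4.08 and 3.69 with Iso, while the 3 DKO mice gave 3.95, 4.00 and 3.75 and 3.74, 3.62 and 3.65. Psmf1 is an inhibitor that binds the core in place of an activator. Its averaged Iso difference was -0.25 (SE 0.11, adjusted p = 0.313).

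The core chaperones build the alpha ring in pairs, Psmg1 with Psmg2 and Psmg3 with Psmg4. In WT, Psmg3 gave 5.65, 5.55 and 5.72 on the untreated and 5.54, 5.19 and 5.34 on the treated arrays, and in DKO 5.09, 5.59 and 6.37 on the untreated and 4.90, 4.92 and 5.28 on the treated arrays. Psmg3 was lower with Iso in all 6 mice, by 0.11 to 0.37 in WT and 0.19 to 1.09 in DKO, where the outlying array held the highest value. Its averaged Iso difference, the lowest of the members, was -0.47 (SE 0.18, adjusted p = 0.254), and -0.30 (SE 0.12, adjusted p = 0.231) without that array. Psmg4 was lower in all 6 mice as well, by 0.09 to 0.56, with an averaged difference of -0.30 (SE 0.12, adjusted p = 0.29).

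Psmg2 read 7.90, 8.21 and 7.63 (WT) and 7.53, 7.71 and 6.00 (DKO) in cells left untreated, and 7.71, 7.61 and 7.36 (WT) and 7.75, 7.72 and 7.61 (DKO) in cells given Iso. The untreated genotype difference of Psmg2, the lowest of the members, was -0.83 (SE 0.34, adjusted p = 0.305), and -0.29 (SE 0.17, adjusted p = 0.505) without the outlying array. Its partner Psmg1 read 7.70, 7.84 and 7.75 in WT and 8.04, 8.18 and 7.95 in DKO cells left untreated, without overlap. That difference was 0.29 (SE 0.11, adjusted p = 0.291), and 0.34 (SE 0.12, adjusted p = 0.252) without the outlying array. With Iso it was 0.06 (SE 0.11, adjusted p = 0.963). The partners thus had opposite signs in untreated cells, and neither passed.

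The 2 genes that match by name only gave no call. Psmc3ip read 3.70 to 4.38 and Psme3ip1 6.58 to 7.39 on the 12 arrays, with averaged genotype differences of -0.04 (SE 0.14, adjusted p = 0.949) and -0.24 (SE 0.13, adjusted p = 0.555).

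Counted at an unadjusted p under 0.05, Iso in WT gave 2 of 45 members (4.44%), against 6.7% of all tested genes. Both, Psmd5 and Psme3, were lower, against 3.24% of all genes lower and 3.46% higher. The fit shares its spread over all 4 groups, so the outlying array also enters comparisons that do not contain it. The median pooled standard deviation of the members was 0.21 with that array and 0.12 without it, against 0.21 and 0.17 over all tested genes. The counts for Iso in WT and for DKO against WT with Iso were not repeated without it. The median member difference for Iso in WT was -0.07, against -0.01 over all tested genes. Iso in DKO gave 13 of 45 members (28.9%), against 18.4% of all tested genes. The higher ones were 8 (17.8%) against 9.46% (Psma6, Psmc6, Psmd1, Psmd10, Psmd12, Psmd14, Psmd6 and Psme4), and the lower ones 5 (11.1%) against 8.94% (Psmb10, Psmc4, Psmd5, Psmd9 and Psmg3). Without the outlying array the count was 4 (8.89%) against 15% of all genes, with Psmb10, Psmc4, Psmd5 and Psmd6. The median was 0.03 with that array and -0.03 without it.

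The interaction gave 5 of 45 members (11.1%), against 10.1% of all tested genes. All of them were higher, Psma6, Psmc6, Psmd12, Psmd6 and Psme3, where 5.48% of all genes were higher and 4.62% lower. The count was 2 (4.44%) against 10.2% without the outlying array, with Psmd12 and Psmd6. The averaged Iso effect gave 9 of 45 members (20%), against 14.4% of all tested genes. Psme4 was the one higher member, against 6.72% of all genes, and the lower ones were 8 (17.8%) against 7.69% (Psmb10, Psmc4, Psmd13, Psmd3, Psmd5, Psmf1, Psmg3 and Psmg4). With that array left out it was 7 (15.6%) against 16.5%.

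DKO against WT untreated gave 11 of 45 members (24.4%), against 13.8% of all tested genes. The higher ones were 4 (8.89%) against 6.36% (Psmd5, Psmd8, Psmd9 and Psmg1), and the lower ones 7 (15.6%) against 7.45% (Psma6, Psmc6, Psmd10, Psmd12, Psmd6, Psme3 and Psmg2). With the outlying array left out the count was 5 (11.1%) against 12.5%, with Psma6, Psmd5, Psmd6, Psme3 and Psmg1. The median was -0.09 with that array and -0.09 without it, against -0.01 over all tested genes. With Iso the genotype comparison gave 1 of 45 members (2.22%), against 7.91% of all tested genes: Psmb10, at -0.36 (SE 0.16, adjusted p = 0.611), where 4.18% of all genes were lower and 3.73% higher. The averaged genotype effect gave 5 of 45 members (11.1%), against 10.7% of all tested genes, the higher ones 3 (6.67%) against 4.91% (Psmd5, Psmd8 and Psmg1) and the lower ones 2 (4.44%) against 5.79% (Psmc2 and Psme3). Leaving that array out gave 7 (15.6%) against 14.7%. Its median was -0.12, and -0.04 without that array.

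Groups of 3 arrays that do not overlap are a plainer count. Iso in WT separated 10 (22.2%) against 8.42% of all genes lower and 2 (4.44%) against 7.16% higher, and Iso in DKO 11 (24.4%) against 10.7% of all genes lower and 5 (11.1%) against 10.8% higher. DKO separated from WT for 8 (17.8%) against 9.21% of all genes lower and 3 (6.67%) against 7.84% higher in untreated cells, and for 3 (6.67%) against 8.56% of all genes lower and 2 (4.44%) against 9.03% higher with Iso. With the outlying array left out, 2 untreated DKO arrays remain, which separate more easily, and the shares of all genes were higher. Iso in DKO then separated 13 (28.9%) against 15.9% of all genes lower and 5 (11.1%) against 17.2% higher. The untreated genotype comparison separated 8 (17.8%) against 16.5% lower and 4 (8.89%) against 13.7% higher, so its lower members were near the background without that array. Over all arrays, the lower members for Iso in WT were Psma6, Psma7, Psmc1, Psmc3ip, Psmc4, Psmd12, Psmd5, Psme3, Psmg3 and Psmg4. In DKO they were Psma7, Psmb10, Psmb4, Psmc4, Psmd13, Psmd3, Psmd4, Psmd5, Psmd9, Psmf1 and Psmg1. Genotype comparisons and Iso comparisons share arrays, so these counts are given side by side only.

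**Figure D5:**
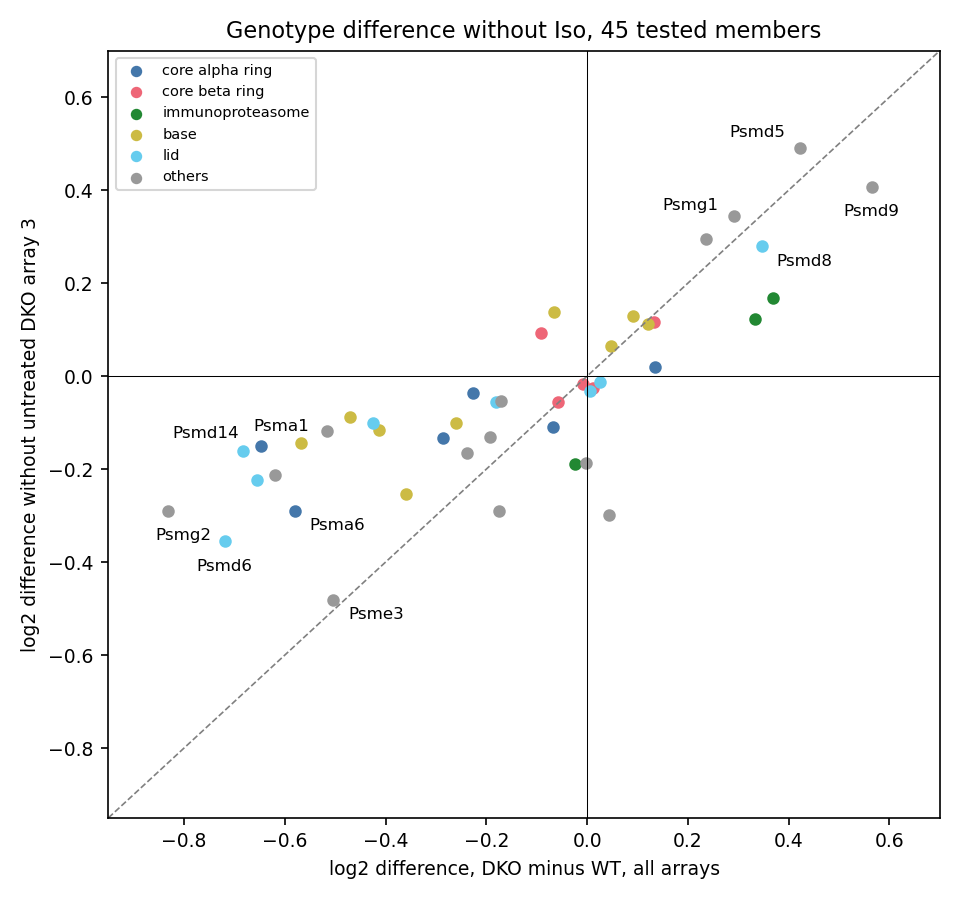
DKO minus WT log2 difference in untreated cells of the 45 tested members, from all arrays (horizontal axis) and without untreated DKO array 3 (vertical axis), coloured by place in the complex; the dashed line marks equal values. Psme3 (-0.50 and -0.48) and Psmd5 (0.42 and 0.49) lie near the line, Psmg2 (-0.83 and -0.29) and Psmd14 (-0.68 and -0.16) away from it.

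Each mouse gave both an untreated and a treated culture, so the Iso difference was also counted by mouse. The members lower in all 6 mice were 7 of 45 (15.6%), against 3.58% of all tested genes: Psma7, Psmb10, Psmb2, Psmc4, Psmd5, Psmg3 and Psmg4. They hold subunits of the alpha ring, the beta ring, the immunoproteasome and the base, and 3 assembly chaperones. The count uses signs only, whatever the size: Psmb2, the beta ring subunit, was lower by 0.007 to 0.19. Psmd2 alone (2.22%) was higher in all 6, against 3.49%. The members higher in the 3 DKO mice and lower in the 3 WT mice were 6 (13.3%), against 2.8%: Psma6, Psmc6, Psmd6, Psmd12, Psmg2 and, by name only, Psmc3ip. In mouse 3, which gave the outlying array, the Iso differences of the 5 proteasome genes among them were 0.56 to 1.61, and in mice 1 and 2 0.01 to 0.40. Psmb8 and Psmb9 (4.44%) showed the reverse signs, against 1.97%. A gene that shows a pattern over all 6 mice shows it over any 5, so leaving out mouse 3 could only add members. Over the 5 mice left, none joined the 7 lower members (15.6%), against 6.08% of all genes. Psmd2 alone (2.22%) was higher, against 5.85%. None joined the 6 members (13.3%) higher in DKO and lower in WT mice, against 4.27%. Psmc3 joined Psmb8 and Psmb9 in the reverse signs (6.67%), against 3.08%. No interaction passed for any of them.

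Partners and regulators of the proteasome came from a list of 30 genes. Of these 21 were measured and tested, 0 of them passed in any of the 7 comparisons, and the others were not analysed here. The 3 WT mice gave 8.65, 8.57 and 8.63 for Nfe2l1 untreated and 8.60, 8.74 and 8.68 with Iso, while the 3 DKO mice gave 8.30, 8.08 and 8.33 and 8.36, 8.36 and 8.34. Nfe2l1, a transcription factor known to raise proteasome genes when the proteasome is short, was lower on all 6 DKO arrays than on all 6 WT arrays. The 6 arrays of a genotype come from 3 mice, and the averaged genotype comparison counts the arrays of a mouse as separate. The averaged genotype difference of Nfe2l1 was -0.35 (SE 0.078, adjusted p = 0.0762), a 0.784-fold level. It passed without the outlying array, at -0.37 (SE 0.077, adjusted p = 0.0318), with array weights (adjusted p = 0.0171), with no filter on dim genes (adjusted p = 0.0352) and with a looser filter (adjusted p = 0.0484). Under the other alternatives, each mouse as a random block among them, it did not pass.

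On the WT arrays Nfe2l2 read 5.49, 5.36 and 5.67 without and 5.94, 5.97 and 5.83 with Iso, and on the DKO arrays 5.12, 5.46 and 4.41 without and 5.04, 5.43 and 5.13 with it. Nfe2l2, the oxidative stress factor that also acts on proteasome genes, did not overlap between the genotypes with Iso. Its genotype difference with Iso was -0.71 (SE 0.22, adjusted p = 0.317). The outlying array is not among the arrays compared there. Leaving it out kept the value at -0.71 and lowered the SE to 0.14, and the difference then passed (adjusted p = 0.0305). It passed also with array weights (adjusted p = 0.0339). The averaged genotype difference was -0.61 (SE 0.15, adjusted p = 0.118). Without the outlying array the averaged value was -0.47 (SE 0.10, adjusted p = 0.0438) and passed. It passed also with array weights (adjusted p = 0.013) and without untreated DKO array 2 (adjusted p = 0.0338), which leaves the outlying array a larger share of its group. With each mouse as a random block, Nfe2l2 passed neither with Iso nor averaged. The averaged genotype median of the members was -0.12, or -0.04 without the outlying array, and no member passed there in either fit. A link between the 2 factors and the members was not tested.

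Uchl5 read 8.30, 8.53 and 8.56 (WT) and 7.58, 7.93 and 6.19 (DKO) in cells left untreated, and 8.16, 8.18 and 7.57 (WT) and 8.53, 8.72 and 8.27 (DKO) in cells given Iso. Uchl5, a deubiquitinase that docks on the base, was lower with Iso in the 3 WT mice and higher in the 3 DKO mice, and treated and untreated arrays did not overlap in either genotype. Its Iso difference in DKO was 1.27 (SE 0.34, adjusted p = 0.104), a 2.41-fold level, and 0.75 (SE 0.20, adjusted p = 0.117) without the outlying array. The interaction was 1.76 (SE 0.49, adjusted p = 0.344), and 1.24 (SE 0.27, adjusted p = 0.166) without that array. With array weights Uchl5 passed for Iso in DKO (adjusted p = 0.0146) and for the untreated genotype comparison (adjusted p = 0.0193). Without untreated DKO array 2 it passed in the same comparisons (adjusted p = 0.0312 and 0.0467), where the outlying array then has a larger share of its group. Usp14, the other deubiquitinase of the base, differed with Iso in DKO by 0.53 (SE 0.28, adjusted p = 0.324), and by 0.19 (SE 0.22, adjusted p = 0.745) without the outlying array. Without untreated DKO array 2 it passed there (adjusted p = 0.0312) and in the untreated genotype comparison (adjusted p = 0.03). These passes, too, rest on a group in which the outlying array has a larger share.

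Of the remaining partners named, Pomp, the chaperone of beta ring assembly, differed with Iso by -0.04 (SE 0.21, adjusted p = 0.994) in WT and 0.33 (SE 0.21, adjusted p = 0.414) in DKO, and by 0.02 (SE 0.12, adjusted p = 0.964) in DKO without the outlying array. Sem1, a small lid protein outside the naming rule, differed by -0.12 (SE 0.13, adjusted p = 0.951) and 0.24 (SE 0.13, adjusted p = 0.316). Vcp, an ATPase that hands ubiquitin-tagged proteins to the proteasome, differed by 0.18 (SE 0.16, adjusted p = 0.928) and 0.15 (SE 0.16, adjusted p = 0.64). Over the 21 genes the median untreated genotype difference was -0.28, and -0.12 without the outlying array. The median over all tested genes for this comparison is given with the member counts above. The summed log2 signal of the 21 was 145.8 on that array and 154.6 to 160.8 on the other 11.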

How the data were processed

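RNA of 12 cultures was measured on 1-colour Affymetrix arrays. The deposited log2 values were normalized with RMA, per the submitters' processing notes (no version, annotation or build is named there). The sorted values of the 12 arrays were nearly identical, each with a median of 3.32. Of 25428 probe sets, 24705 had 1 symbol and 723 none; the brighter probe set was kept per symbol. Genes above the median of their array on at least 3 arrays were tested (13737 kept, 10967 dim). A mean per group was fitted to all 12 arrays with limma 3.58.1 in R 4.3.3, and p-values were adjusted over all tested genes by Benjamini-Hochberg, with a threshold of 0.05. Without the outlying array 13551 genes were tested. The fit was tested on simulated data. The number of arrays limits the precision.

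Named genes are members that passed, the 3 highest and 3 lowest in each comparison, and a list of subunits and partners; the remaining genes named, H2-K1 among them, were chosen after their values were seen. The members and lists were chosen with earlier results of these data known. Per the labels' mouse numbers, the 2 arrays of a mouse come from the same animal; the deviations of the 2 arrays from their group means correlated at -0.06 to 0.13. Alternatives were array weights, other filters, centring, quantile normalization, trend and robust settings, only the arrays compared, mouse as a block, and each array left out; the counts by mouse without mouse 3 were added after the data were seen. Fibroblast markers averaged 4.80 to 5.16 and endothelial markers 6.24 to 6.92 on the arrays.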

Additional observations from a re-analysis of the deposited data

How the results depend on the processing

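The count of members that passed was 0 in every comparison and changed under few alternatives. With array weights, which gave the third untreated DKO array a weight of 0.156, the count was 2 for Iso in DKO (Psmb10 and Psmd5), 2 for DKO against WT untreated (Psme3 and Psmd5), 1 for the averaged Iso effect (Psmd5) and 2 for the averaged genotype effect (Psme3 and Psmd5). With each array left out in turn the count ranged from 0 to 2 for Iso in DKO and from 0 to 1 for the averaged Iso effect. It was 2 (Psmb10 and Psmd6) when the second untreated DKO array was left out, which leaves the third, outlying one a larger share. It was 1 (Psmd5) when the third untreated DKO array was left out. The median member difference ranged from -0.034 to 0.069 for Iso in DKO, from -0.21 to -0.067 for DKO against WT untreated and from -0.14 to -0.044 for the averaged genotype effect over the same omissions. The replicate block, with mouse as a random block, left the count at 0 in all 7 comparisons, as did mouse as a fixed block in the 4 comparisons of Iso where it can be fitted; the averaged Iso difference of Psmd5 kept its value of -0.39, with an adjusted p of 0.0858 and 0.162. The block changed no call. Of 5217 alternative values of named genes, 25 passed where the reported value did not, 6 that had not passed turned in sign by more than the spread between replicates, and none reversed a call. The cause of these shifts was not tested.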
